A study of Arabidopsis thaliana with 6 samples.

Results

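The loci described here are 923 annotated pseudogenes of Arabidopsis thaliana, of 13286 genes that the arrays measured with a probe set of their own and a locus in the TAIR10.1 gene table. They were chosen only by their type in that table, which lists 3923 pseudogenes, so that 23.5% of them were measured. Each of the 923 had 1 probe set, and all were tested, since no filter on signal was applied. The table gives a symbol other than the locus number to only 1 of them, CYTOSLEEPER, and names no transposon family, so which of these loci derive from transposons is not told apart here.

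The study compared whole seedlings of the mutant pkl-1 with wild-type Col-0 seedlings, both at 14 days, with 3 Affymetrix arrays for each genotype. The mutated gene, PICKLE (PKL), codes for an ATP-dependent chromatin remodeller of the CHD3 type, and pkl-1 is the only allele used. Both genotypes grew in continuous light on agar with Murashige and Skoog salts, and neither received a treatment other than sterilization of the seed surface. The labels call the arrays of a genotype biological replicates without saying whether sowings were separate, so p-values measure the spread between these samples.

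Pseudogenes are sequences that resemble genes but have lost the ability to make the protein, and in plants many lie in relics of transposons. Plants keep most of this sequence silent through DNA methylation directed by small RNAs, methylation of histone H3 and chromatin remodelling, and Polycomb proteins silence many genes outside it. PKL has been linked both to genes marked by trimethylation of lysine 27 of histone H3 and to the pathway of RNA-directed DNA methylation. Transcripts with early stop codons can also be removed by nonsense-mediated decay.

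Signal is given in log2 units as deposited, after the GCRMA background correction, and ran from 0.597 to 13.69 over the probe sets tested. Array medians over these lay between 5.033 and 5.132. The PKL probe set is unnamed here, so the genotype labels could not be checked against the mutated gene. Of the 18 tissue markers listed, 4 were measured: the light-harvesting gene LHCB4.2 had means of 12.24 and 12.74 in pkl-1 and wild type, and the root beta-glucosidase gene PYK10 had 11.96 and 11.95. The root-hair expansin genes EXPA18 and EXPA7 lay between 3.56 and 4.75, while no seed or pollen marker of the list had a named probe set. LHCB4.2 fell by 0.50 ± 0.09 log2 units (SE; limma adjusted p = 0.0355) and the 3 root genes did not pass; the part of tissue proportions in the results below was not tested.

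Most pseudogenes gave almost no signal in either genotype. The median over the 923 loci was 1.671, 1.760 and 1.729 on pkl-1 arrays 1 to 3 and 1.665, 1.654 and 1.677 on wild-type arrays 1 to 3. On every array the 95th percentile of the pseudogenes was below 3 log2 units, between 2.510 and 2.788. Means below 2 in both genotypes were found for 686 loci (74.3%), and 879 (95.2%) did not exceed 3 on any of the 6 arrays. Values this low lie where GCRMA gathers probe sets without specific signal, so a locus there cannot be called transcribed or untranscribed from its level. The spread between arrays was small as well, the median standard deviation per locus being 0.155 log2 units for the pkl-1 arrays and 0.147 for the wild-type arrays (n = 3 for each genotype).

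A mean above 3 log2 units was found for 30 pseudogenes in pkl-1 (3.25%) and 21 in wild type (2.28%). Over all 22746 probe sets tested these shares were 64.8% and 65.1%, and protein-coding genes exceeded 3 in 63.7% and 63.9%. By array, 27, 35 and 29 pseudogenes were above 3 in pkl-1 and 24, 24 and 22 in wild type. The lowest pkl-1 count was thus above the highest wild-type count, while the share over all probe sets was slightly lower in pkl-1. Counting only loci above 3 on all 3 arrays of a genotype gave 22 in pkl-1 and 19 in wild type, a smaller gap than between the counts by mean. Of the 32 loci above 3 in either genotype, 19 exceeded it in both, 11 in pkl-1 alone and 2 in wild type alone. Most of the 11 lay near the threshold: without AT4G04410, their arrays ran from 2.123 to 4.249 over both genotypes and none passed the test (lowest limma adjusted p = 0.0877). With a threshold of 4 log2 units the counts were 13 and 11.

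**Figure D1:**
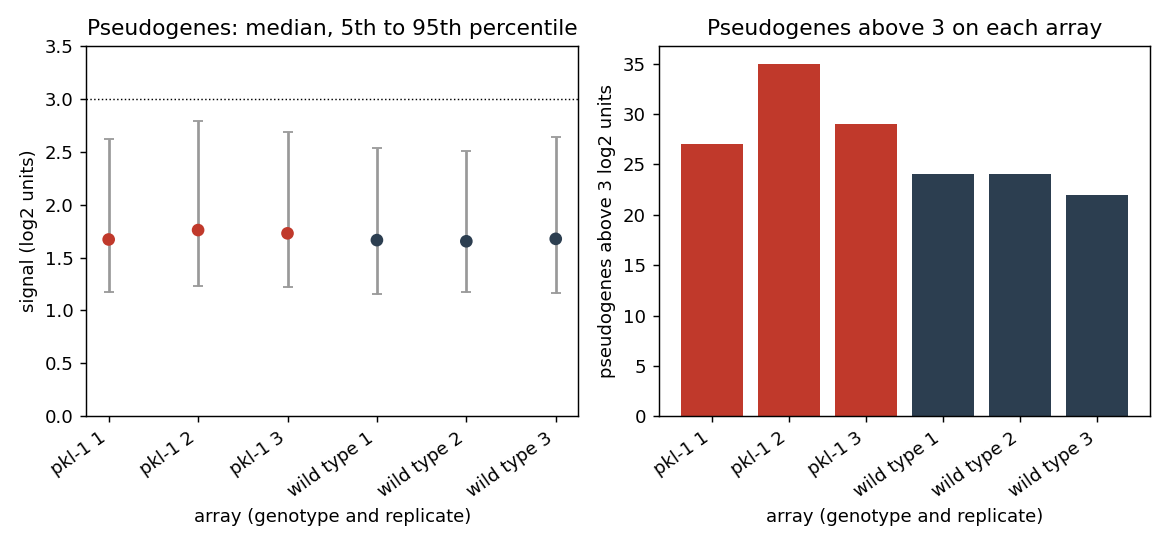
Signal of the 923 pseudogenes on each array. Left, the median (point) and the 5th to 95th percentile (bar) in log2 units, with the threshold of 3 dotted; right, the number of pseudogenes above 3, which is 27 to 35 on the pkl-1 arrays (red) and 22 to 24 on the wild-type arrays (dark blue).

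Between genotypes, 3 pseudogenes were higher in pkl-1 and 0 lower (limma adjusted p under 0.05, adjusted over all probe sets). Over all probe sets 2.37% passed, 1.06% higher and 1.31% lower, against 0.325% of the pseudogenes. Most probe sets lie at higher levels, so genes with a mean under 3 log2 units are given as well. Of the 897 such pseudogenes 0.223% passed, 2 higher and 0 lower. Of the 4452 such protein-coding genes 0.629% passed, 10 higher and 18 lower. At an unadjusted p under 0.05, 46 pseudogenes were higher and 12 lower, which is 4.98% and 1.3%; the shares over all probe sets were 7.35% and 7.55%. A change of at least 1 log2 unit, which is 2-fold, was found upwards in 2 pseudogenes (0.217%; 1.07% over all probe sets) and downwards in 1 (0.108%; 1.48%). The 3 that passed the adjusted test were AT4G04410, AT3G60170 and AT2G10090. When 1 array was left out, 1 or 2 of the 3 passed, and AT4G04410 alone did so without pkl-1 replicate 1 and again without wild type replicate 2. In a bulk sample of whole seedlings, more cells with a transcript and more transcript in each cell cannot be told apart.

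AT4G04410 had the largest change by far among the pseudogenes. Its signal was 7.21, 7.33 and 7.51 on the pkl-1 arrays and 2.18, 2.55 and 2.11 on the wild-type arrays. The 2 genotypes are far apart, and the arrays of each agree to within 0.5 log2 units. The change was 5.07 ± 0.20 log2 units (SE), or 33.6-fold (limma adjusted p = 8.20e-05). It passed in each of 13 other settings, with changes from 4.98 to 5.20 when 1 array was left out. Because the wild-type level is at the lower end of the signal, the fold depends on the background that GCRMA estimated.

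AT3G60170 rose from wild-type values of 1.35, 1.02 and 1.35 to 2.72, 2.29 and 3.17 in pkl-1. The genotypes did not overlap, but only 1 of the 6 arrays exceeded 3, and the pkl-1 arrays were spread more widely (SD 0.44) than those of wild type (0.19). The change was 1.49 ± 0.22 log2 units (SE), 2.81-fold (limma adjusted p = 0.0183). As for AT4G04410, the wild-type level is at the floor of the signal, so the size of this fold depends on the GCRMA background and is uncertain. The call was lost when either pkl-1 replicate 1 (0.0584) or wild type replicate 2 (0.0875) was left out.

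AT2G10090 stayed at the floor in both genotypes, with 1.62, 1.65 and 1.69 in pkl-1 and 1.21, 1.12 and 1.15 in wild type. Its change of 0.49 ± 0.08 log2 units (SE) passed through very close replicates, with standard deviations of 0.03 and 0.04 (limma adjusted p = 0.0229). Leaving out any 1 array ended this call (0.0582 to 0.0953), as did a variance prior without a trend (0.0569). Both of its means lie below 2, and the locus was not above 3 on any array.

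**Figure D2:**
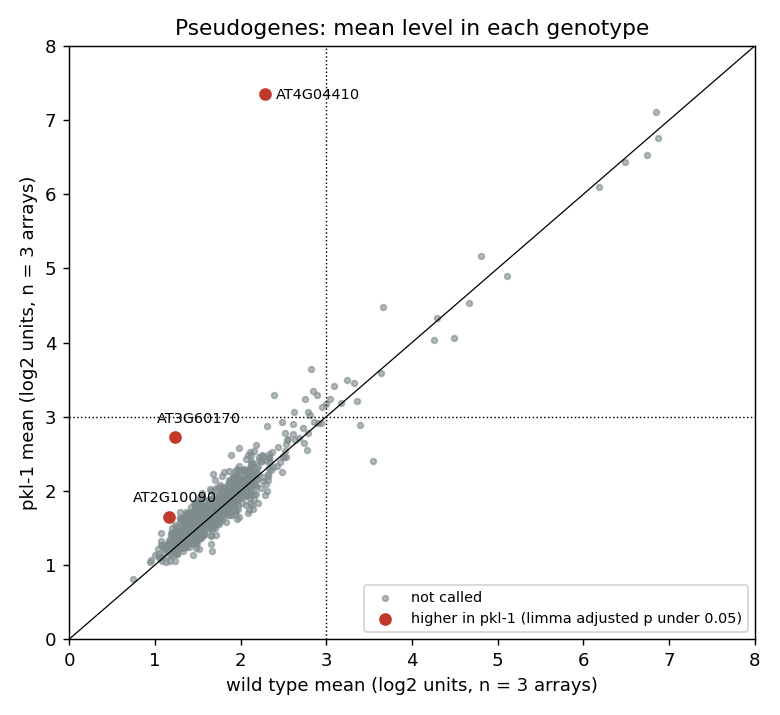
Mean signal of each of the 923 pseudogenes in wild type (x axis) and pkl-1 (y axis), in log2 units with n = 3 arrays each. The solid line marks equal means and the dotted lines 3 log2 units; AT4G04410 stands apart at 2.28 and 7.35, while AT3G60170 and AT2G10090, also in red, keep means below 3 in both genotypes.

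The loci around these 3 gave little to set beside them. AT4G04410 lies in the gene table among long non-coding RNAs and a protein-coding gene that no named probe set measured. The nearest measured pseudogene, AT4G04420, was at 1.82 in pkl-1 and 1.71 in wild type, a difference of 0.11 log2 units that did not pass (limma adjusted p = 0.791). Near AT3G60170, the protein-coding gene AT3G60180, 2 genes away, was at 6.17 ± 0.30 and 5.98 ± 0.08 (SD, n = 3 each), and did not pass (adjusted p = 0.707). AT2G10090 sits in an unbroken run of pseudogenes, where the 10 nearest genes of the table, 5 on each side, are all of this type. Its measured neighbour AT2G10070 had means of 2.03 and 1.85 and did not pass (adjusted p = 0.589). None of the measured genes within 2 of the called loci passed, though most genes there were not measured.

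Of the 19 pseudogenes above 3 in both genotypes 0 passed limma's adjusted test, a set too small to set against the 2.37% over all probe sets. The 6 loci with the highest means had overlapping genotypes in each case, with changes from -0.213 to 0.260 log2 units and adjusted p from 0.645 to 0.924. AT4G16870 was at 7.04, 7.02 and 7.26 in pkl-1 and 6.23, 7.46 and 6.85 in wild type, so that the wild-type arrays lay on both sides of the mutant. AT1G80020 was at 6.67, 6.75 and 6.87 in pkl-1 and 6.89, 7.13 and 6.59 in wild type. AT1G35612 was at 6.46, 6.76 and 6.38 in pkl-1 and 6.84, 6.89 and 6.49 in wild type, with a difference of -0.21 ± 0.17 (SE). The arrays of AT1G80020 and AT1G35612 interleave.

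AT4G08220 was at 6.35, 6.52 and 6.42 in pkl-1 and 6.67, 6.51 and 6.26 in wild type, and AT3G43510 at 6.24, 6.20 and 5.85 and 6.34, 6.14 and 6.05. AT3G14800 was at 4.91, 4.98 and 4.81 in pkl-1 and 4.94, 5.35 and 5.05 in wild type. In these loci too the genotypes overlap. Probe sets differ in how strongly they bind, so signals of different loci do not rank their transcripts. Among the other 13 loci above 3 in both genotypes, changes ran from -0.425 to 0.813.

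**Figure D3:**
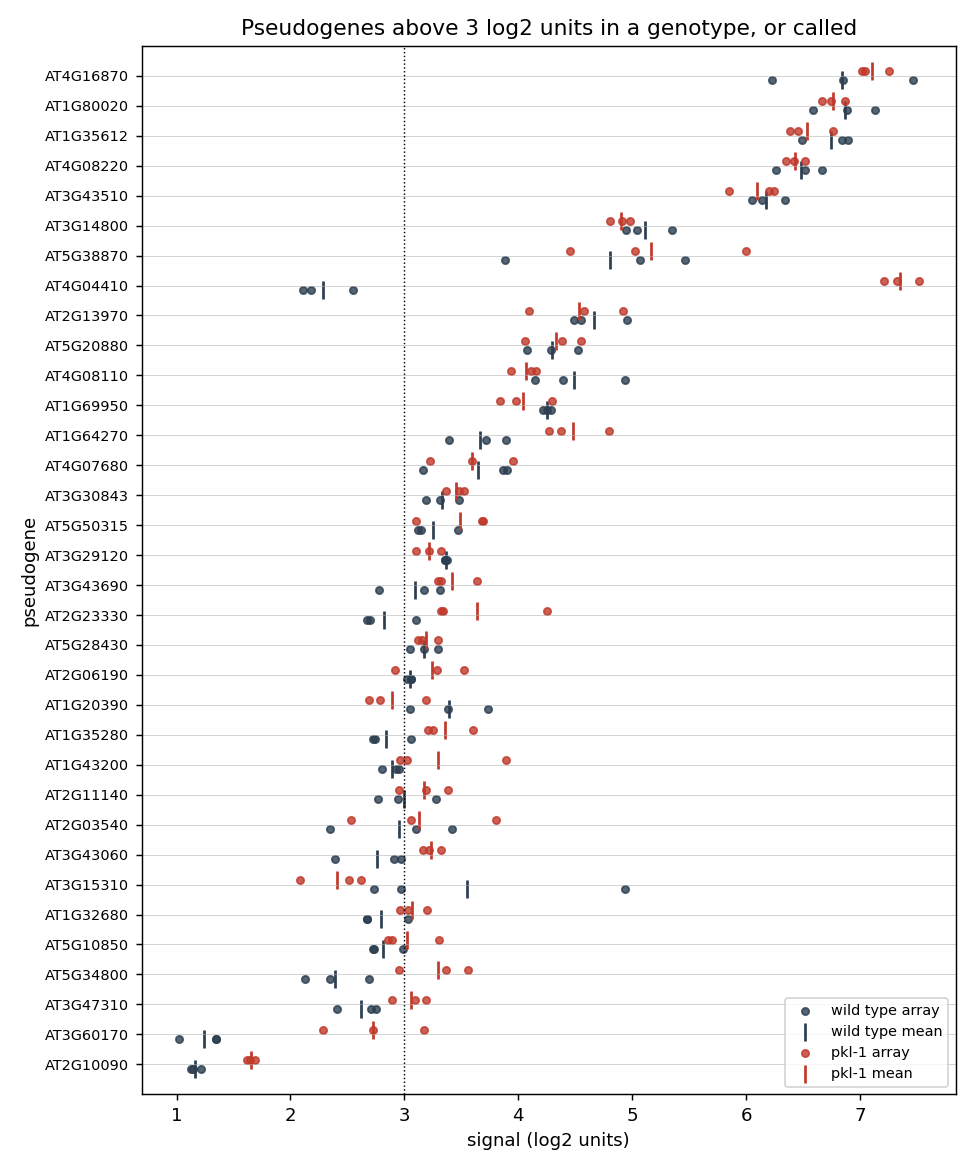
Signal on each array (points) and genotype mean (vertical ticks), in log2 units, for the 32 pseudogenes with a mean above 3 in either genotype and for the called loci AT3G60170 and AT2G10090. The pkl-1 arrays (red) and wild-type arrays (dark blue) overlap in 22 of the 32, and AT4G04410 alone is separated by more than 4 log2 units. All pkl-1 arrays lie above all wild-type arrays in 8 of the 32 and below in 2. Over all probe sets these shares are 10.6% and 10.4%. A locus could enter the 32 by exceeding 3 in 1 genotype only, which favours such gaps.

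Several loci had pkl-1 arrays above wild type without passing the test. AT5G34800 came closest, at 3.56, 3.37 and 2.96 in pkl-1 and 2.12, 2.69 and 2.34 in wild type. Its difference was 0.91 ± 0.22 log2 units (SE; limma adjusted p = 0.0877), and it passed only with the replicate number as a block (0.0472). AT1G64270 was at 4.80, 4.27 and 4.38 in pkl-1 and 3.90, 3.72 and 3.39 in wild type, which is 0.81 ± 0.22 (adjusted p = 0.129). AT2G23330 was at 3.32, 3.34 and 4.25 in pkl-1 and 2.67, 3.10 and 2.70 in wild type (0.82 ± 0.28, adjusted p = 0.220), and its pkl-1 replicate 3 lay well above the other pkl-1 arrays. AT1G35280 was at 3.21, 3.60 and 3.25 in pkl-1 and 3.06, 2.74 and 2.73 in wild type (adjusted p = 0.245). Its probe set is of a kind shared by several transcripts of a family.

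A further 3 of the largest differences that did not pass lay below 3 in both genotype means. AT2G16010 was at 0.61 ± 0.22 log2 units, AT2G06310 at 0.59 ± 0.18 and AT2G04460 at 0.57 ± 0.16 (SE), with adjusted p of 0.240, 0.175 and 0.134. Their wild-type means were 1.88, 1.99 and 2.31. In each the genotypes did not overlap, but the loci were picked by the size of their rises, which favours such a gap. Over all probe sets 10.6% had all pkl-1 arrays above all wild-type arrays. CYTOSLEEPER (AT1G15300), named for its symbol and not by its change, was at 2.24, 2.18 and 2.37 in pkl-1 and 2.11, 1.88 and 1.84 in wild type, with no overlap and an adjusted p of 0.278.

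In the opposite direction the largest difference rested on 1 array. AT3G15310 was at 4.94 on wild type replicate 1 but at 2.97 and 2.73 on the other wild-type arrays, and at 2.62, 2.52 and 2.09 in pkl-1. Its difference of -1.14 ± 0.53 log2 units (SE) did not pass (limma adjusted p = 0.378), and its wild-type standard deviation of 1.211 was the largest of all 923 loci. AT1G20390 was at 2.78, 3.19 and 2.69 in pkl-1 and 3.05, 3.74 and 3.38 in wild type, which overlap (adjusted p = 0.366). AT4G08110 was at 4.15, 3.94 and 4.11 in pkl-1 and 4.94, 4.39 and 4.15 in wild type (adjusted p = 0.465). The lower-level loci AT3G42090, AT4G07840 and AT3G21020 differed by -0.48, -0.39 and -0.39 log2 units from wild-type means of 1.67, 2.09 and 2.15, and none passed (adjusted p 0.216 to 0.314). In these loci and in AT3G15310 all pkl-1 arrays lay below all wild-type arrays. Over all probe sets 10.4% had such a gap, and these loci were picked by the size of their falls, which favours it.

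Other loci lay at the threshold of 3. AT2G03540 was at 2.53, 3.06 and 3.80 in pkl-1 and 2.35, 3.41 and 3.11 in wild type, and AT3G42250 at 2.43, 3.70 and 2.63 and 2.84, 3.03 and 2.95. Both crossed 3 between replicates of a genotype. AT3G43060 was at 3.16, 3.22 and 3.32 in pkl-1 and 2.91, 2.39 and 2.97 in wild type, so that all its arrays fell on the side of its genotype, yet the difference of 0.48 ± 0.19 did not pass (limma adjusted p = 0.300). Some bright loci also varied between replicates: AT5G38870 was at 4.46, 6.003 and 5.03 in pkl-1 and 5.07, 3.89 and 5.46 in wild type, and did not pass (adjusted p = 0.808).

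Small positive differences outnumbered negative ones among the dim pseudogenes. Of the 923 changes 605 were positive (65.5%), with a median of 0.055 log2 units, where all probe sets had 52.5% positive and a median of 0.013. Protein-coding genes with a mean under 3 had 55.5% positive and a median of 0.023. By level, 590 of the 897 pseudogenes with a mean under 3 and 10 of the 13 with a mean from 3 to 4 had positive changes, but only 5 of the 13 with a mean of 4 or more, whose median was -0.079. By chromosome, the median change of the pseudogenes was 0.055, 0.057, 0.030, 0.061 and 0.064 on chromosomes 1 to 5. All 3 pkl-1 arrays lay above all 3 wild-type arrays in 72 pseudogenes (7.8%; 10.6% over all probe sets) and below in 27 (2.93%; 10.4%). The median signal of pkl-1 array 1 (1.671) was below that of wild-type array 3 (1.677), so the genotypes overlapped in this measure. Quantile normalization lowered the median change to 0.030, and leaving out 1 array moved it between 0.031 and 0.071. The protein-coding genes with a mean under 3 had array medians of 1.802, 1.881 and 1.832 in pkl-1 and 1.813, 1.802 and 1.826 in wild type. These medians overlap between genotypes, and the median change of 0.023 was smaller than the 0.055 of the pseudogenes. What moved the low signals was not tested.

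Where a pseudogene sits was described by the genes next to it in the table. Both adjacent genes were pseudogenes for 348 loci, 1 of them for 331 and neither for 244. Transcribed pseudogenes, a separate type, were not counted as pseudogenes in these classes. In wild type a mean above 3 was found for 14 of the 244 loci without an adjacent pseudogene (5.74%), 5 of 331 with 1 (1.51%) and 2 of 348 with 2 (0.575%). In pkl-1 the counts were 19 (7.79%), 7 (2.11%) and 4 (1.15%). The counts are a description, and no test of the difference between these classes was made. The medians of the wild-type signal, 1.654, 1.673 and 1.686, did not follow that order. AT4G04410 and AT3G60170 belonged to the 244, and the 6 loci with the highest means did too. AT3G60170 is nevertheless adjacent to a transcribed pseudogene, AT3G60164, which no named probe set measured.

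By chromosome, pseudogenes above 3 in wild type numbered 5 of 177, 2 of 277, 6 of 195, 4 of 169 and 4 of 105 on chromosomes 1 to 5. Chromosome 2 had the lowest share, 0.722% in wild type and 1.81% in pkl-1. The arrays covered 33.4% of the table's pseudogenes of chromosome 2 and 13% of those of chromosome 5. By kind of probe set, 734 loci had an ordinary probe set, 111 one shared within a family and 78 one prone to cross-hybridise. None of the 78 had a mean above 3, and the 3 called loci all had ordinary probe sets. Of the 111, 6 were above 3 in pkl-1 (5.41%) and 3 in wild type (2.7%), against 3.27% and 2.45% of the ordinary ones. Among the 11 loci above 3 in pkl-1 alone, 3 had a probe set shared within a family, which may also read other members.

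**Figure D4:**
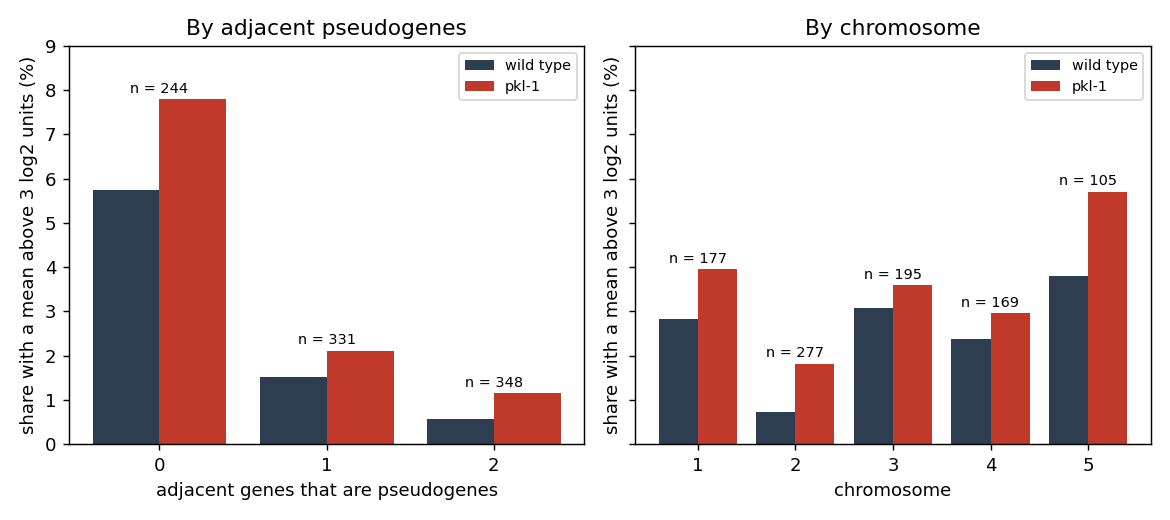
Share of pseudogenes with a mean above 3 log2 units in wild type (dark blue) and pkl-1 (red), in percent, by how many of the 2 adjacent genes are pseudogenes (left) and by chromosome (right), with the number of loci above the bars. The share is 5.74% in wild type and 7.79% in pkl-1 without an adjacent pseudogene, and 0.575% and 1.15% between 2 pseudogenes. Transcribed pseudogenes do not count as adjacent pseudogenes here.

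Adjacent genes of the type pseudogene were left out here, while transcribed pseudogenes were kept. Of the 776 adjacent genes that remained, 259 were measured and 6 passed, which is 2.32% against the 2.37% over all probe sets. These were 1 higher and 5 lower. Only 15 of the 259 were next to a pseudogene above 3, too few to compare with the other 244. AT4G11200 was the one pseudogene with a called gene on each side, a pair singled out after its values were seen. AT4G11190 fell by 1.32 ± 0.21 log2 units and AT4G11210 by 1.33 ± 0.16 (SE; limma adjusted p = 0.0220 and 0.00857). The pseudogene between them had a pkl-1 mean of 2.20 and a wild-type mean of 1.91, and its difference of 0.29 did not pass (adjusted p = 0.514). The single rise, 2.20 ± 0.29 at AT1G52100, was next to AT1G52090, at 1.90 in pkl-1 and 2.16 in wild type (adjusted p = 0.286).

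No listed gene that keeps such loci silent was measured by a named probe set. Of 43 genes listed for DNA methylation, small RNA silencing and nonsense-mediated decay, 3 were measured and 0 passed in limma's test; none had an unadjusted p under 0.05 either. DME, which codes for a DNA demethylase and so removes the methylation mark, was at 6.31, 4.69 and 6.16 in pkl-1 and 5.73, 6.27 and 5.95 in wild type. The decay factors UPF2 and UPF3 differed by -0.10 ± 0.17 and -0.05 ± 0.13 log2 units (SE), with adjusted p of 0.848 and 0.906.

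A further 66 loci carry the type transcribed pseudogene and are not among the 923. A mean above 3 was found for 9 of them in pkl-1 (13.6%) and 7 in wild type (10.6%). One passed (1.52%, against 2.37% over all probe sets), a share near the background. AT2G24160 was at 2.75, 3.56 and 2.91 in pkl-1 and 4.68, 5.39 and 4.55 in wild type. It fell by 1.80 ± 0.30 log2 units (SE; limma adjusted p = 0.0277).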

How the data were processed

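Total RNA of 6 samples was hybridised to Affymetrix arrays. The authors deposited a log2 signal for each probe set, with GCRMA named as the tool per the submitters' processing notes; the log2 scale was read from the values. The GCRMA version, genome build and array annotation were not given in the sources used here. After 64 control probe sets were left out, 22746 were tested. The platform's annotation paired 13513 with 1 gene, 503 with several (a pseudogene among them in 0) and 8730 with none here; 13436 of the first had a locus in the TAIR10.1 table. A gene's probe set of highest mean stood for it. The test was that of limma 3.58.1, run in R 4.3.3 (lmFit and eBayes with a mean-dependent prior). It was two-sided, as pkl-1 minus wild type, with Benjamini-Hochberg adjustment over all probe sets and a threshold of 0.05. The fit was also tried on simulated data without a replicate effect. Changes were placed there only in probe sets with a mean above 3 log2 units, so the low levels of most pseudogenes were not covered. Precision is limited by the number of arrays, 3 for each genotype, which carry no read depth.

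The pseudogenes, gene lists and tests were chosen with earlier results of these data known. Named loci were AT4G04410, called pseudogenes, those crossing 3 log2 units with a change of at least 0.5, the 6 highest means, the 6 largest rises and 6 largest falls not called, the 4 nearest to 3, measured listed genes and measured genes within 2 of a called locus; others were named after their values were seen. Alternatives were other variance priors, rescalings, array weights, a replicate block, a filter on low means, left-out arrays and other thresholds. Figures were drawn with matplotlib 3.10.9.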

Additional observations from a re-analysis of the deposited data

How the results depend on the processing

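The 3 pseudogenes called higher became 1 without probe sets under 3 log2 units, where 26 loci were left. That filter removed AT3G60170 and AT2G10090, with means over the 6 arrays of 1.98 and 1.41, before any test. The count was 1 at an adjusted p under 0.01 and 5 under 0.10, and 1 to 2 with 1 array left out. Under each alternative 0 were called lower, except for 1 when transcribed pseudogenes, an addition chosen after seeing the data, were included. Pseudogenes above 3 numbered 56 in pkl-1 and 48 in wild type at a threshold of 2.5, and 13 and 11 at 4; with 1 array left out they were 29 to 31 and 21 to 22. Over all 22746 probe sets, 540 passed in the main fit, 111 at an adjusted p under 0.01 and 981 under 0.10. Requiring also a change of at least 1 log2 unit gave 303. Fits lacking 1 array had totals from 123 to 303. Among the 259 measured adjacent genes such fits called 0 to 3, against 6 in the main fit. Each total was counted anew, so it does not tell how many of the main calls remained. A replicate block in the fit gave 1518 probe sets, 16 adjacent genes and 4 pseudogenes past the threshold, AT5G34800 (adjusted p = 0.0472) being the addition. Deviations from the genotype means correlated at 0.49, -0.02 and 0.58 for arrays of equal number. Between numbers 1 and 3 they correlated at -0.51 and -0.56. The deviations of a genotype's arrays sum to 0, so these negative values largely follow from the others and are no separate observation. Replicates 1 and 3 thus varied alike in both genotypes, while replicate 2 did not. The labels do not say what arrays of equal number share, and the main fit did not pair them. Apart from the filter on low means, the cause of these moves was not tested.

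Of 313 values of 25 named pseudogenes 12 changed sign, none in a called locus. With 1 array left out the change ran from -0.248 to 0.0214 for AT1G80020, -0.159 to 0.477 for AT2G03540, -0.409 to 0.226 for AT3G42250, -0.151 to 0.0437 for AT3G43510, -0.162 to 0.0414 for AT4G08220 and -0.0500 to 0.568 for AT4G16870. AT3G42250 was also positive with quantile normalization (0.0141) and array weights (0.0321). Signal near the floor limits what can be seen: for 891 loci neither mean exceeded 3.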
